A study of Mus musculus with 43 samples.

Results

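The genes described here are 9 lineage master regulators of the basic helix-loop-helix (bHLH) family, the muscle factors *Myod1*, *Myf5*, *Myf6* and *Myog* and the neural factors *Neurod1*, *Neurog1*, *Neurog2*, *Neurog3* and *Atoh1*. They were chosen by name, as 9 of 20780 autosomal protein-coding genes, and the rule that lists them uses no measured value. *Myf5* and *Myf6* are separated by 6.72 kb on chromosome 10, so the 9 genes stand for 8 loci. Each was described by the repressive histone domains and the Setdb1 peaks at its position in mouse embryonic fibroblasts (MEFs), cells cultured from the connective tissue of the embryo.

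A bHLH master regulator pairs with a widely expressed partner, an E protein, and binds short DNA sites called E-boxes to switch on the genes of a lineage. *Myod1* is the textbook example, since forced expression converts fibroblasts into muscle cells. In cells of other lineages such regulators are often covered by H3K27me3, the histone mark laid down by Polycomb repressive complexes, whereas H3K9me3 and H3K9me2 mark another kind of repressed chromatin, and Setdb1 is one of the enzymes that methylate H3K9.

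The MEFs were taken from F1 embryos at E13.5, with a *castaneus* father and a *domesticus* mother, and were transduced with a retroviral short hairpin RNA. Female cells were *Setdb1*+/+ *Xist*∆A/+ with a non-silencing hairpin, Setdb1 depleted cells were female *Setdb1*+/gt *Xist*∆A/+ with a hairpin against *Setdb1*, and male cells were *Setdb1*+/+ X/Y with the non-silencing hairpin. The gt allele is a gene trap, the ∆A allele forces the *castaneus* X to be inactive, and the remaining *Setdb1* allele of the depleted cells is intact apart from the knockdown, so these are cells with less Setdb1 and not with none. Chromatin immunoprecipitation with sequencing was run for H3K27me3, H3K9me3, H3K9me2 and Setdb1, with 3 libraries per target in female and male cells and 2 in Setdb1 depleted cells.

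The libraries of a group were pooled before peaks were called, so each value below comes from 1 list per target and kind of cell. It has no replicate error, no difference between cells could be tested, and a list cannot tell a domain in all cells from a domain in some of them. Histone domains have edges in steps of 5 kb and a smallest width of 10 kb, and they carry no score, so the depth of the mark libraries is unknown. The female list held 7293 autosomal H3K27me3 domains, the Setdb1 depleted list 6259 and the male list 6745, with fewer libraries behind the depleted list. Of 14 fibroblast genes such as *Col1a1*, *Vim* and *Pdgfrb*, 0 start sites lay in an H3K27me3 domain in any kind of cell. The shares of all genes were 20.4%, 18.1% and 18.4% in female, Setdb1 depleted and male cells. Since 12 genes active in all cells gave the same 0, this count cannot identify the cells as fibroblasts. RNA of the lineage regulators was not analysed here.

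H3K27me3 domains held the start sites of most of the lineage regulators in fibroblasts, and the exceptions were muscle genes. In female cells 7 of the 9 start sites lay in a domain, against 20.4% of all autosomal protein-coding genes. After Setdb1 depletion 6 of 9 did, against 18.1%, and in male cells 6 of 9, against 18.4%. The same 6 genes, *Myod1*, *Neurod1*, *Neurog1*, *Neurog2*, *Neurog3* and *Atoh1*, were in a domain in all 3 kinds of cells, a state shared by 12.7% of all genes. *Myf5* and *Myf6* were in none of the 3, as were 74.8% of all genes, and *Myog* stood at the edge of a domain. A domain within 20 kb of the gene was present for 7, 7 and 6 of the 9 in female, Setdb1 depleted and male cells, against 42.4%, 38.6% and 39.5% of all genes.

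The share of each locus, taken as the gene with 20 kb on each side, gave the same order. *Myod1*, *Neurog1* and *Neurod1* were covered over 100% of the locus in every list. *Neurog3* was covered over 100%, 88.0% and 100% in female, Setdb1 depleted and male cells, and *Neurog2* over 95.6%, 94.1% and 83.8%. These 5 loci were thus covered over at least 83.8% of their length in every list. *Atoh1* was covered over 71.2%, 59.4% and 59.4%, and *Myog* over 47.0%, 35.2% and 0%. *Myf5* and *Myf6* were at 0% in all 3 lists, so the muscle group held both the fullest coverage and none. The mean of the 9 genes was 68.2%, 64.1% and 60.4%, beside 16.8%, 14.3% and 15.4% for all genes, whose median was 0%. A coverage of 95% or more was reached by 2.97%, 2.18% and 2.62% of all genes.

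**Figure D1:**
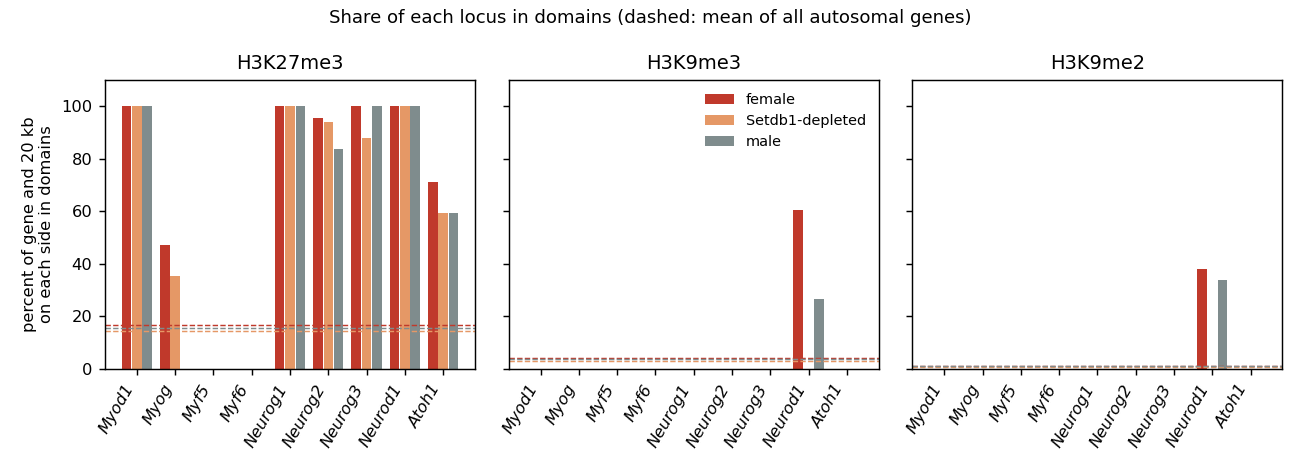
Percent of the gene and 20 kb on each side that lay in domains, for the 9 lineage bHLH genes (horizontal axis) and 3 marks (panels), with 1 bar per kind of cell taken from 1 pooled list. Dashed lines are the mean of all autosomal protein-coding genes. H3K27me3 covered 7 loci in female cells and left *Myf5* and *Myf6* at 0%, and *Neurod1* was the gene with H3K9me3 or H3K9me2.

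The printed sequences are the 250 bases before the RefSeq start sites of the 3 neural genes whose H3K27me3 domains were widest, changed most between cells and were narrowest (*Neurog1*, *Neurog3*, *Atoh1*), and of *Myog*, whose start site coincided with a domain edge. They are from RefSeq, build GRCm38.p6, read 5′ to 3′ on the strand of the gene. E-boxes (CANNTG) are in capitals, and a match to this pattern on either strand is also a match on the other. The windows are chr13:56252181-56252430 (minus strand), chr10:62132840-62133089 (plus), chr6:64728875-64729124 (plus) and chr1:134289754-134290003 (plus).
*Neurog1*: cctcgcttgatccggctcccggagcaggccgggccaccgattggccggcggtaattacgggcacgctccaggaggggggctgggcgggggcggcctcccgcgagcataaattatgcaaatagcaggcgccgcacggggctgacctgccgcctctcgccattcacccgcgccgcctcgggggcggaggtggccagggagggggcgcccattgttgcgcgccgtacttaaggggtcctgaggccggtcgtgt
*Neurog3*: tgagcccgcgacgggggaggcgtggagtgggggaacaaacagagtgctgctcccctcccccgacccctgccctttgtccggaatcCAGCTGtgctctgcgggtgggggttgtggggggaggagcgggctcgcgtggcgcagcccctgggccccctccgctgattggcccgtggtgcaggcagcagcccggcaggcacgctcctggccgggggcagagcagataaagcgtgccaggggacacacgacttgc
*Atoh1*: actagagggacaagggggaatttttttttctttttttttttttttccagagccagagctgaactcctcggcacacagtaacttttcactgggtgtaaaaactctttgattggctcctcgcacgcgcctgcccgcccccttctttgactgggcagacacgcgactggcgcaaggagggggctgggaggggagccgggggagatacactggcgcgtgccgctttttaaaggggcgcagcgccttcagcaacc
*Myog*: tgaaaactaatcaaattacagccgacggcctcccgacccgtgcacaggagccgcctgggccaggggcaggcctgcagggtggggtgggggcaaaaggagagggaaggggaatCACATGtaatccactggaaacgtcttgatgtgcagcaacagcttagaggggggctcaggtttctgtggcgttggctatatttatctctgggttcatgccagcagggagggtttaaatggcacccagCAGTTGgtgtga

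Promoter windows from 250 bases before to 50 after a RefSeq promoter start were matched for 7 of the 9 genes, all but *Myod1* and *Myf6*. The promoter nearest to the GENCODE start was taken. For *Myf5* and *Neurog2* it started at 107486134 and 127633136, and not at the RefSeq gene starts, 107486927 and 127632733. They ranged from a promoter poor in CpG to a CpG-dense one. *Myf5* had 3 CpG, more than 17.6% of 15687 autosomal promoters, *Myog* had 9, *Neurog2* 10, *Neurog3* 19, *Atoh1* 20, *Neurod1* 26 and *Neurog1* 32, more than 87.0% of promoters. The median of all promoters was 15 CpG, so the 7 windows lay on both sides of it. *Neurog2* and *Myog*, at 10 and 9, lay in female H3K27me3 domains with fewer CpG than the median promoter, and *Myf5* was outside all domains with the fewest. Over all promoters the share in a female H3K27me3 domain was 17.4% with 0 to 4 CpG, 27.3% with 5 to 9, 22.1% with 10 to 19 and 18.3% with 20 or more. E-boxes were found in 4 of the 7 windows, 2 in *Myog* and 1 each in *Neurod1*, *Neurog1* and *Neurog3*, and 67.9% of all promoters held at least 1. That of *Neurog3* read CAGCTG, as in 15.3% of promoters, and the one of *Neurog1* lies outside the printed bases. A window without a match says only that these letters are not in it.

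*Myod1*, which starts the muscle programme, is at chr7:46376474-46379099 on the plus strand. Its H3K27me3 domain reached from 46340001 to 46430000 in female cells, a width of 90 kb. It was 75 kb wide in the Setdb1 depleted list and 70 kb in the male list. The upstream edge stood at the same step in all 3 lists, 36.5 kb before the start site, and the downstream edge lay 53.5 kb, 38.5 kb and 33.5 kb after it. The domain was wider than 94.1%, 93.7% and 90.0% of autosomal domains of its list. It took in the start site of the neighbour *Kcnc1*, which encodes a potassium channel subunit, and the lincRNA 1700025L06Rik in every list.

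*Myog*, which drives the last steps of muscle differentiation, is at chr1:134289989-134292548 on the plus strand, and its H3K27me3 differed in position between the lists. In female cells a domain of 85 kb ran from 134205001 to 134290000 over the upstream gene *Adora1*, an adenosine receptor, and ended 11 bp past the start site, so that 0.469% of the gene body was covered. In Setdb1 depleted cells the domain that began at the same step ended at 134220000, and another of 15 kb, 134290001-134305000, began 12 bp past the start site and covered 99.5% of the gene body. In male cells no domain touched the gene, and the nearest H3K27me3, a domain of 45 kb, ended 25.0 kb before it. These differences of 11 and 12 bp are far below the 5 kb step of the edges, so the call of the *Myog* start site as inside in female and outside in Setdb1 depleted cells rests on where a step fell. In the printed *Myog* sequence the female domain includes the first 247 bases and leaves out the last 3. The RefSeq start, 134290004, lies past that edge, and with it the female call was lost and a Setdb1 depleted call gained.

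A female domain without a Setdb1 depleted one at the start site was seen in 5.2% of all genes, the reverse in 2.86%, and a female domain without a male one in 5.34%. Among the 9 genes *Myog* was the 1 gene of the first and the third kind and 0 genes were of the second. Other differences at *Myog* spanned several steps, since the 25.0 kb before the start site were in a domain in female cells and not in the other lists, and nearly all of the gene body was in a domain in the Setdb1 depleted list and not in the others.

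*Myf5*, the first of the muscle factors to be expressed in the embryo, is at chr10:107482908-107486134, and *Myf6*, also called MRF4, at chr10:107492853-107494737, both on the minus strand. For *Myf5* the nearest H3K27me3 domain was 1003 kb away in the female list, 1008 kb in the Setdb1 depleted list and 324 kb in the male list. For *Myf6* the distances were 1013 kb, 1018 kb and 315 kb. The whole neighbourhood, with *Lin7a* on one side and *Ptprq* on the other, was therefore without an H3K27me3 call. H3K9me3 was also far, the nearest domain to *Myf5* being at 729 kb, 1023 kb and 724 kb. The 1 domain of any mark within 100 kb was a male H3K9me2 domain of 15 kb, 107525001-107540000, at 30.3 kb from *Myf6* and 38.9 kb from *Myf5*.

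**Figure D2:**
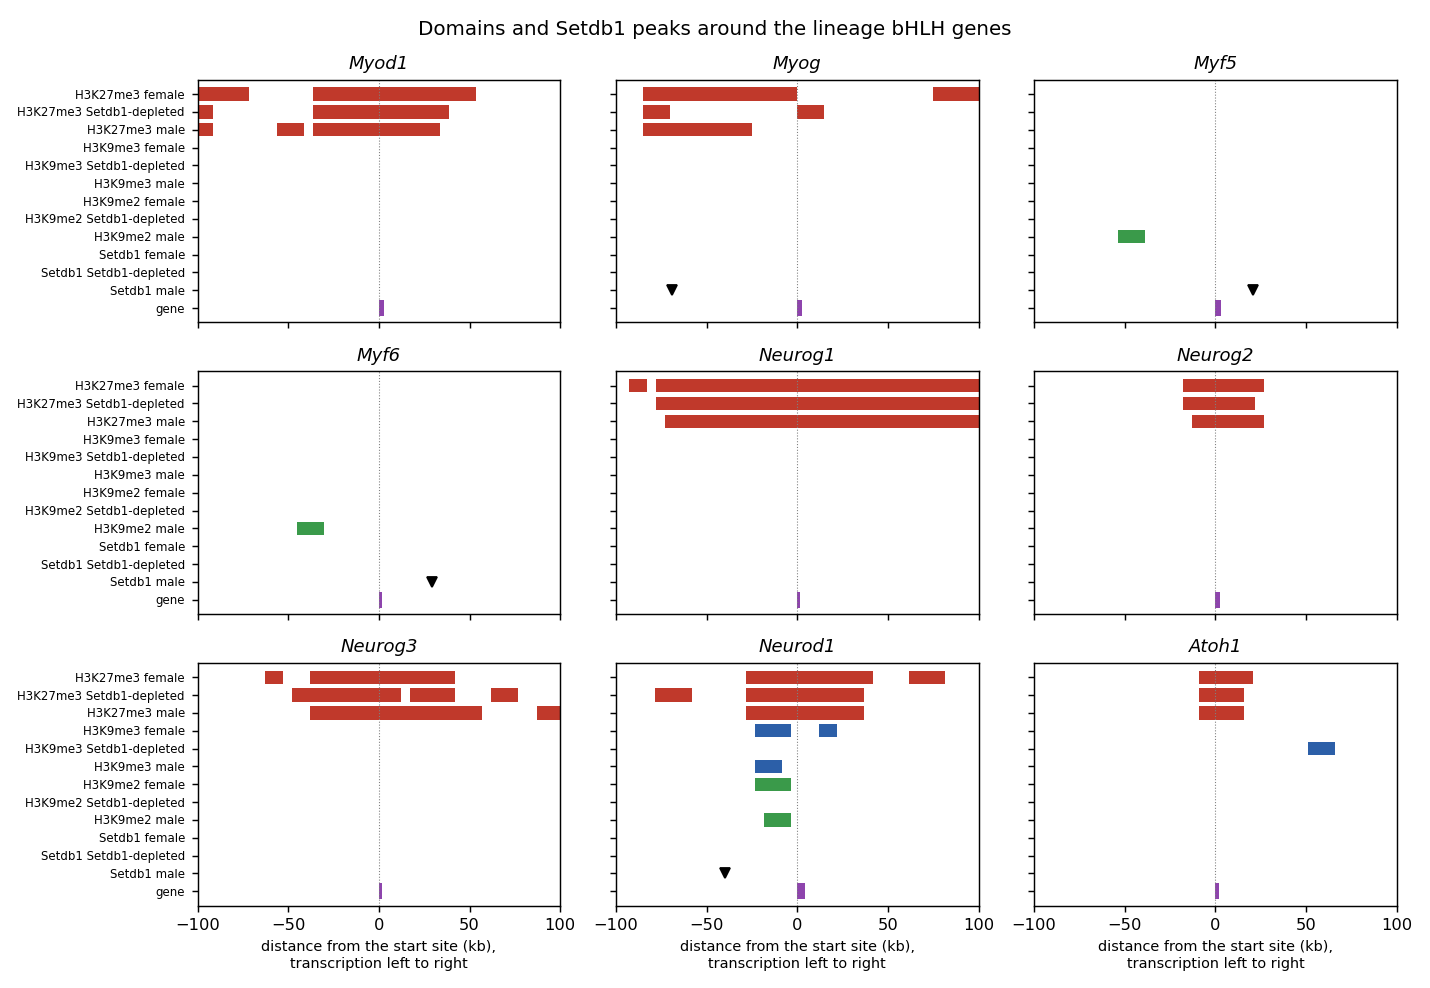
Domains of H3K27me3 (red), H3K9me3 (blue) and H3K9me2 (green), and Setdb1 peaks (black triangles, the peak nearest to the gene, marked at its centre), within 100 kb of the start site of each lineage bHLH gene, in 1 row per mark and kind of cell. The horizontal axis is the distance in kb from the GENCODE start site with transcription from left to right, and the purple bar is the gene. Red bars cross the start sites of 6 genes in all 3 rows, *Myog* lies at an edge, and *Myf5* and *Myf6* have no red bar. The male bar at *Myog* joins 2 touching domains.

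The neural regulators were in H3K27me3 domains in all 3 kinds of cells, and the widths ran from 25 to 195 kb between genes and, for 1 gene, at most from 60 to 95 kb between cells. *Neurog1*, which specifies sensory neurons of the cranial ganglia, is at chr13:56250478-56252163 on the minus strand. Its domain was 190 kb, 195 kb and 190 kb wide in female, Setdb1 depleted and male cells, more than 99.3%, 99.5% and 99.4% of autosomal domains. It took in the start sites of *Tifab* and of the chemokine gene *Cxcl14* in every list. The Setdb1 depleted and male domains began 1 step earlier, at 56135001 against 56140001, and with that step they took in the start site of *H2afy*, which encodes the histone macroH2A1. No other edge of this domain moved by more than 5 kb.

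*Neurog2*, a factor of cortical and sensory neurons, is at chr3:127633135-127635631 on the plus strand. Its domain was 45 kb, 40 kb and 40 kb wide in female, Setdb1 depleted and male cells, each edge within 1 step. It was flanked by *Zgrf1*, whose last part it touched in female and Setdb1 depleted cells, and held no other start site.

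*Neurog3*, which specifies the endocrine cells of the pancreas, is at chr10:62133090-62134763 on the plus strand, within the span of *Fam241b* on the opposite strand. Its domain was 80 kb wide in female cells (62095001-62175000), 60 kb in Setdb1 depleted cells (62085001-62145000) and 95 kb in male cells (62095001-62190000). In Setdb1 depleted cells a second domain, 62150001-62175000, followed after a gap of 1 step, and when gaps of 5 kb were closed the Setdb1 depleted domain was 90 kb wide. The downstream end of this region thus stood at 62175000 in both female and Setdb1 depleted cells, and the upstream edge lay further out in Setdb1 depleted cells. The male domain reached 15 kb further and into *Tspan15*.

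*Neurod1*, which acts in maturing neurons and in pancreatic beta cells, is at chr2:79452521-79456751 on the minus strand. GENCODE places the start of *Cerkl*, a gene of the retina, at 79456785 on the same strand with *Neurod1* inside its span, and the lincRNA Gm26755 runs across *Neurod1* on the other strand. The H3K27me3 domain was 70 kb wide in female and 65 kb in Setdb1 depleted and male cells, and all 3 ended at 79485000.

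*Atoh1*, which is needed for cerebellar granule neurons and the hair cells of the inner ear, is at chr6:64729125-64731245 on the plus strand. It had the narrowest domain, 30 kb in female and 25 kb in Setdb1 depleted and male cells, which reached 9.12 kb before the start site in every list and held no other gene. Its width exceeded 55.1%, 48.1% and 44.1% of autosomal domains, so *Atoh1* was near the middle of its lists where *Neurog1* was at the top.

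**Figure D3:**
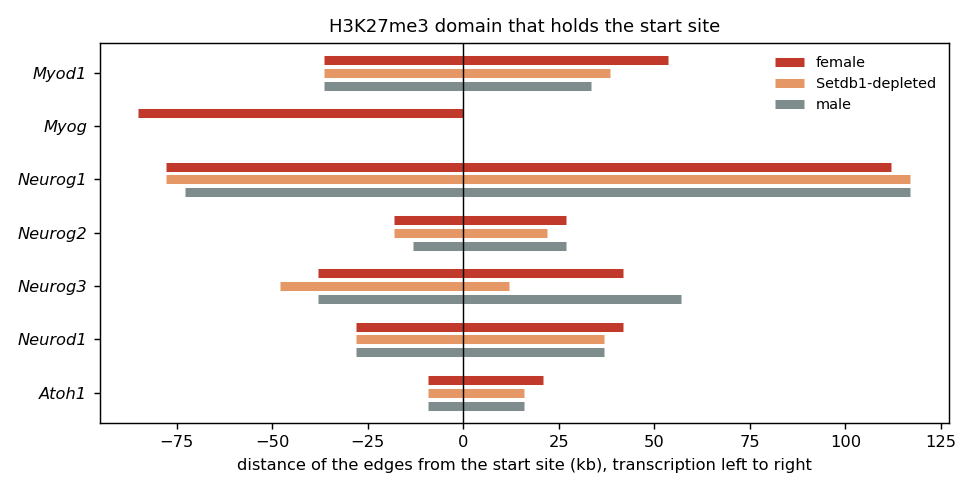
Extent of the H3K27me3 domain that holds the start site (vertical line) of each gene, in kb along the direction of transcription, for female (red), Setdb1 depleted (orange) and male (grey) cells. Each bar is 1 domain of 1 pooled list. *Neurog1* had the widest domains, 190 to 195 kb, *Atoh1* the narrowest, 25 to 30 kb, and *Myog* has a bar in female cells only, which ends 11 bp past its start site.

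Over the genes with a domain at the start site, the median width was 80 kb in the female list (7 genes), 62.5 kb in the Setdb1 depleted list (6) and 67.5 kb in the male list (6). The female set also holds *Myog*, at 85 kb, so the medians are not over the same genes. With gaps of 5 kb closed they were 80 kb, 70 kb and 77.5 kb. For all autosomal protein-coding genes in H3K27me3 domains the median was 40 kb, 35 kb and 40 kb. The upper quartile was 70 kb, 55 kb and 70 kb, so that *Neurog1* and *Neurog3* stood above it in every list and *Atoh1* below the median in every list. The H3 signal did not set these loci apart. In their domains the pools had 16.6 to 23.4 H3 reads per kb on the scale of the deepest pool, beside medians of 20.7 to 20.9 over all autosomal H3K27me3 domains, and the lowest values were those of *Atoh1*.

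The 6 genes with a domain in every list were compared edge by edge, with the female list common to both comparisons. Between female and Setdb1 depleted cells both edges lay within 5 kb for 4 of 6 genes, *Neurod1*, *Neurog1*, *Neurog2* and *Atoh1*, against 68.6% of all genes with a domain in both lists. Between female and male cells it was the same 4, against 74.6%. These shares are close to the background. The domain was narrower in Setdb1 depleted than in female cells for 5 of 6 genes, all but *Neurog1*, against 47.7%, and narrower in male cells for 4 of 6, against 30.5%. For 3 of those genes the difference was 5 kb, the size of 1 step, in both comparisons. Which genes were narrower depended on gaps of 1 step. With gaps of 5 kb closed, *Neurog3* was wider in Setdb1 depleted than in female cells (90 against 80 kb), *Neurog1* was narrower in Setdb1 depleted and male cells (195 and 190 against 205 kb), and *Myod1* was as wide in male as in female cells (90 kb).

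H3K9 methylation was called near 1 of the lineage regulators, *Neurod1*. Counts of 0 or 1 of 9 are too small to be placed above or below the shares of all genes. No start site lay in an H3K9me3 domain in any list, where 2.92%, 2.48% and 2.95% of all genes had one in female, Setdb1 depleted and male cells. For H3K9me2 it was also 0 of 9, against 0.919%, 0.698% and 1.17%. Within 20 kb of the gene, 1 of 9 had an H3K9me3 domain in female cells (15.1% of all genes), 0 after Setdb1 depletion (9.28%) and 1 in the male list (13.6%). The counts for H3K9me2 were 1 (4.45%), 0 (3.29%) and 1 (4.48%), and the gene was *Neurod1* each time. Mean locus coverage of the 9 genes in female, Setdb1 depleted and male cells was 6.72%, 0% and 2.95% for H3K9me3, beside 4.13%, 3.03% and 3.9% for all genes, and 4.21%, 0% and 3.77% for H3K9me2, beside 1.13%, 0.813% and 1.31%. The means of the 9 rest on *Neurod1* alone. The nearest H3K9me3 call at another of the 9 genes was a domain of the Setdb1 depleted list, 64780001-64795000, at 48.8 kb from *Atoh1*.

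At *Neurod1* all 3 marks lay in the same region of female cells. H3K9me3 domains were called at 79435001-79445000, downstream of the gene and inside *Cerkl*, and at 79460001-79480000, from 3.25 kb upstream of the start site, and together they covered 60.5% of the locus. In male cells H3K9me3 was called at 79465001-79480000 (26.6% of the locus), whereas the nearest domain of the Setdb1 depleted list was 1443 kb away. H3K9me2 was called at 79460001-79480000 in female cells (37.9%), at 79460001-79475000 in male cells (33.9%), and no nearer than 628 kb in Setdb1 depleted cells. Female and male cells thus had both H3K9 marks upstream of *Neurod1*, and Setdb1 depleted cells had neither, whereas the H3K27me3 domain around them was 65 to 70 kb wide in all 3.

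The loss of an H3K9 call in the Setdb1 depleted list was frequent over the genome. Of genes with an H3K9me3 domain within 20 kb in both female and male cells, 43.3% had none in Setdb1 depleted cells, and for H3K9me2 it was 43.8%. The autosomal H3K9me3 lists held 5820, 3467 and 5217 domains, and the part of the 2 libraries in the shorter Setdb1 depleted list was not tested. All H3K9 domains at *Neurod1* lay within its H3K27me3 domain. The methods of the study state that the H3K9me3 antibody had a slight cross-reactivity with H3K27me3 and the H3K9me2 antibody had none detectable. The part of cross-reactivity in the H3K9me3 calls at *Neurod1* was not tested. Of the lineage regulators with the start site in an H3K27me3 domain, 1 of 7 had H3K9me3 within 20 kb in female cells. It was 0 of 6 in Setdb1 depleted and 1 of 6 in male cells. Among all genes with the start site in an H3K27me3 domain, 13.1% of female, 6.25% of Setdb1 depleted and 12.1% of male genes had H3K9me3 within 20 kb.

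The H3K9 domains of *Neurod1* held a larger share of repeats than its whole H3K27me3 domain, of which they are a part. Repeats made up 57.7% and 49.6% of the female H3K9me3 domains and 60.9% of the male one. For H3K9me2 they made up 49.6% of the female and 52.1% of the male domain. The whole female H3K27me3 domain of 70 kb was at 34.0%. Over all autosomal female domains the median repeat share was 65.5% for H3K9me3, 55.0% for H3K9me2 and 29.2% for H3K27me3. The female H3K27me3 domains of the 7 genes ranged from 17.1% at *Myod1* to 41.8% at *Atoh1*, and their CpG density from 9.27 per kb at *Neurod1* to 17.3 per kb at *Neurog2*, beside a median of 10.1 per kb.

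Setdb1 peaks were few near the 9 lineage regulators, as they were near all genes. Within 20 kb of a gene there were 0 of 9 in female cells, where 4.07% of all genes had a peak, 0 of 9 in Setdb1 depleted cells (1.33%) and 1 of 9 in male cells (9.74%). At these rates 0 or 1 of 9 is close to the background. The lists held 1250, 418 and 3310 peaks, called from 18134299, 14405821 and 12320583 reads after down-sampling, so the male list was the longest on the fewest reads. The Setdb1 depleted list is named in its header for gene trap cells with the control hairpin, while its sample labels state a *Setdb1* hairpin. The labels were followed, and which hairpin the list stands for is uncertain.

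The male peak was that of *Myf5*, which like *Myf6* and *Myog* had no repressive domain within 20 kb in male cells. It lay 17.4 kb downstream of the gene at chr10:107465441-107465538, outside any annotated gene, repeat or histone domain. It had a pileup of 5 reads, a fold enrichment of 3.65, a −log10 p of 4.24 and a −log10 q of 0.128, and 23.2% of male peaks had a lower −log10 p. The plus strand of the peak, from GRCm38.p6 with its E-box in capitals, is shown since it is the only Setdb1 call within 20 kb of these genes.
Peak near *Myf5*: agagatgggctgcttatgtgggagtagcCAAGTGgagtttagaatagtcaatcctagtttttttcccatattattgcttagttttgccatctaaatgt
It held 0 CpG.

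The other male peaks within 100 kb lay near *Neurod1* and *Myog*. That of *Neurod1* was 39.6 kb upstream, at chr2:79496338-79496435, with a −log10 p of 5.95, and outside the H3K27me3 and H3K9me3 domains of male cells. That of *Myog* was 68.8 kb upstream, at chr1:134221098-134221201, within *Adora1* and within a male H3K27me3 domain, with a −log10 p of 6.37. Within 50 kb 3 of 9 genes had a male peak (*Myf5*, *Myf6* and *Neurod1*), against 16.0% of all genes, and within 100 kb 4 of 9, against 25.4%. The female and Setdb1 depleted lists had 0 of 9 within 100 kb, against 10.8% and 3.59%. *Myf5* and *Myf6* share the same peak. In female cells the nearest peak to any of the 9 was 127 kb from *Neurog1* and the median distance was 1151 kb, against 750 kb for all genes. In Setdb1 depleted cells the median was 2883 kb against 2433 kb, and in male cells 315 kb against 269 kb.

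The genes with the most similar pattern to the mean of the 9, by the mean absolute difference in locus coverage over the 9 histone lists, were 4930522H14Rik (2.38 percentage points), *Mtmr9* (2.45), *Pctp* (2.47), *Tyrobp* (2.51) and *Poln* (2.54). Their H3K27me3 coverage lay between 68.1% and 71.3% in female cells, so they matched a mean that no single one of the 9 genes came near except *Atoh1*, at 71.2%.

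The other bHLH genes were then described in the same way. Neural and retinal bHLH genes resembled the neural members. Of 14, the start sites of 13 lay in an H3K27me3 domain in the female list, 11 in the Setdb1 depleted list and 12 in the male list, beside 20.4%, 18.1% and 18.4% of all genes. Their median locus coverage was 98.1%, 86.6% and 90.4%, against 0% for all genes. Among them were *Olig1*, *Olig2* and *Olig3*, factors of oligodendrocytes and spinal cord neurons, and *Ptf1a*, a factor of pancreas and cerebellum, all in domains in all 3 lists. *Neurod4* was at 0% of its locus in each. A Setdb1 peak lay within 20 kb of 0 of the 14 in every list, beside 4.07%, 1.33% and 9.74% of all genes. H3K9me3 lay within 20 kb of 0, 0 and 1 of them, the 1 being *Bhlhe22*, beside 15.1%, 9.28% and 13.6%. In H3K9me2 domains the start sites of 0, 0 and 1 of the 14 were found, beside 0.919%, 0.698% and 1.17% of all genes. *Neurod6* was covered over 57.5% in female and 0% in Setdb1 depleted and male cells, and *Atoh7* over 60.1%, 0% and 60.1%.

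Mesodermal bHLH genes were divided, as the muscle factors were. Of 12, 7, 7 and 6 were in domains in female, Setdb1 depleted and male cells, with median coverage of 60.6%, 60.6% and 45.9%. *Hand1* and *Hand2*, factors of heart and limb, *Msc*, *Tcf15*, *Tcf21* and *Bhlha9* were in domains throughout. *Twist1*, *Twist2*, *Scx*, *Mesp1* and *Msgn1* had start sites outside in every list, *Twist1* and *Twist2* being factors of mesenchymal cells and *Scx* of tendon. *Mesp2* was covered over 46.8%, 46.8% and 0%. A Setdb1 peak lay within 20 kb of 2 of the 12 in female cells, *Twist2* and *Bhlha9*, against 4.07% of all genes. It was 0 in Setdb1 depleted and male cells, against 1.33% and 9.74%. In each list 1 of the 12, *Tcf21*, had H3K9me3 within 20 kb, against 15.1%, 9.28% and 13.6%. Of 8 bHLH genes of blood and other tissues, 3, 4 and 3 were in domains, among them *Tal1*, a factor of blood stem cells, in all 3 lists, and *Tal2* in Setdb1 depleted cells only, over 48.4% of the locus. The counts of both lists stand beside 20.4%, 18.1% and 18.4% of all genes.

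The partners and inhibitors of the lineage factors had their start sites outside H3K27me3 domains. The *Tcf3* locus was still covered over 29.1%, 21.3% and 21.3% in female, Setdb1 depleted and male cells. The start sites of the 3 E proteins *Tcf3*, *Tcf4* and *Tcf12* were in 0 domains in every list, as were those of the 4 *Id* genes, whose products bind E proteins and keep them from DNA. With background shares of 18.1% to 20.4%, 0 of 3 and 0 of 4 are small numbers. Of 11 *Hes*, *Hey* and *Bhlhe40*-type repressors, which act downstream of Notch or in the circadian clock, 5, 6 and 3 were in domains, beside 20.4%, 18.1% and 18.4% of all genes. *Hey1* was covered over 100%, 100% and 37.9%, *Bhlhe41* over 31.7%, 42.3% and 0%, and *Hes3* over 0%, 47.4% and 0%.

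Genes that act upstream of the muscle bHLH factors were mostly in H3K27me3 domains. Of 11, the start sites of 9, 8 and 9 lay in one, beside 20.4%, 18.1% and 18.4% of all genes, with median coverage of 75.9%, 75.9% and 81.8%. *Pax3* and *Pax7*, which mark muscle progenitors, and *Eya2*, *Lbx1* and *Tbx1* were in domains in all 3 lists. *Six4* was covered over 0%, 37.9% and 0%, *Eya1* over 8.3%, 0% and 0%, *Meox1* over 7.7%, 7.7% and 51.7%, and *Meox2* over 18.0%, 0% and 18.0%. The start sites of the 4 *Mef2* genes, cofactors of the muscle factors with functions in many cells, lay in 0 domains in every list. Their median locus coverage was 6.14%, 5.08% and 9.43%.

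**Figure D4:**
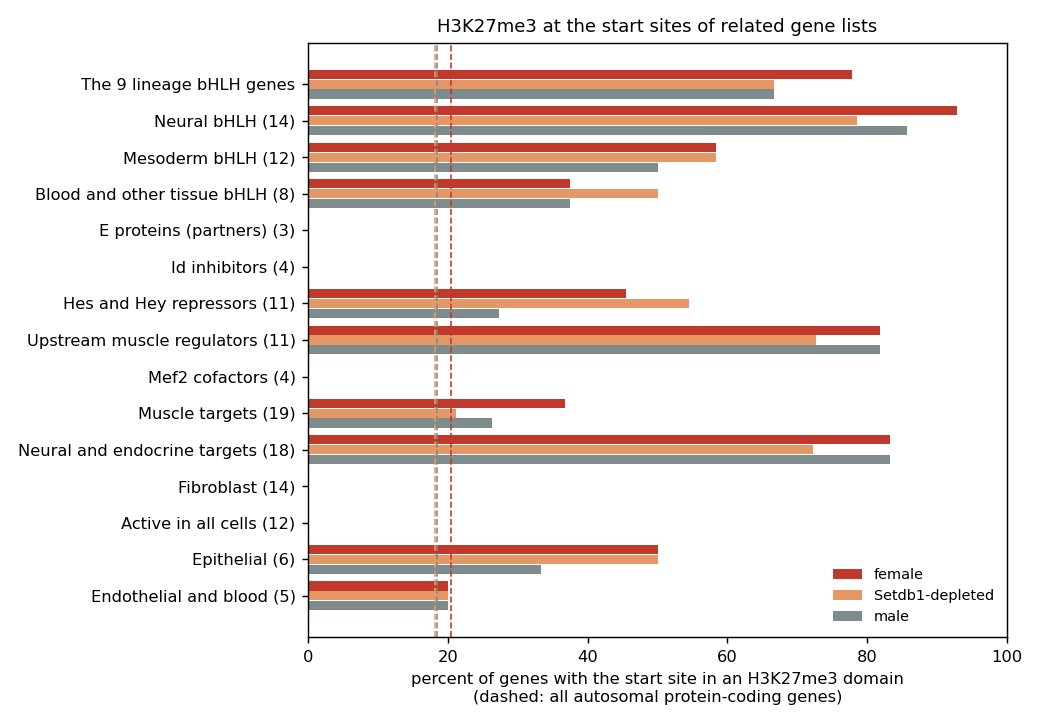
Percent of genes with the start site in an H3K27me3 domain (horizontal axis) for the 9 lineage bHLH genes and the other lists, whose number of genes is in brackets, in female (red), Setdb1 depleted (orange) and male (grey) cells, with dashed lines for all autosomal protein-coding genes (20.4%, 18.1% and 18.4%). Neural bHLH genes had 92.9%, 78.6% and 85.7%, and the E proteins, *Id*, *Mef2*, fibroblast and ubiquitous lists were at 0% throughout.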

How the data were processed

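The study ran ChIP-seq for 4 targets in 3 kinds of MEFs, and 12 deposited lists were used, 9 of histone domains and 3 of Setdb1 peaks. The authors aligned reads with Bowtie2 to mm10 with strain variants masked, pooled the libraries of each group, and called histone domains in Seqmonk 0.29.0 (MACS style, fragments of 10 kb, p under 1e-05, H3 as control). The deposited histone lists give in log2 units the H3 reads of each pool, scaled by the authors to the deepest pool. Unscaled, 100% of these values were whole reads within 0.01 reads, with a depth, relative to the female pool, of 61.6% for the Setdb1 depleted pool and 71.8% for the male one. Per the file headers Setdb1 peaks came from MACS2 2.1.0.20140616 against whole cell extract (p under 0.001, down-sampled), with the deposited pileup (a coverage signal), fold enrichment (a ratio) and −log10 p and q. The labels give NSCs in the protocol of extraction but MEFs in titles and sources, and MEFs were taken. Which H3 pool was the control of which histone call is not given in the sources used here.

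Positions are 1-based in mm10, genes are from GENCODE M21 and sequence is from GRCm38.p6, the same assembly. Overlaps needed 1 bp and were counted with Python 3.11.15, numpy 2.4.6 and pandas 2.3.3, checked on simulated intervals. No test was run, since each group has 1 pooled list, and counts stand beside the share over 20780 autosomal protein-coding genes or, for edges and widths, over the genes with a domain in both lists. No interval is given, since the lists hold no counts behind a call. The 9 genes and all lists were chosen with earlier results of these data known. Genes named from a list were those whose H3K27me3 state differed among cells, at most 6 a list, and those in the minority where 3 or fewer stood in or out of female domains, with the neighbours in a domain of the 9 genes and the 5 genes nearest in pattern. Other genes named as examples of a list were chosen after their values were seen. Alternatives were other definitions of a gene in a domain, other distances and thresholds for Setdb1 peaks, other flanks and the merging of neighbouring domains. Some genes of these lists are not reported here by name.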

Additional observations from a re-analysis of the deposited data

How the results depend on the processing

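No paired analysis was possible because the lists pool the libraries of a group and their columns carry no replicate, and for the same reason no library could be left out. Of the alternative values, 84 stayed within 1.5 times of the reported value and 21 did not. The counts of start sites in H3K27me3 domains stayed within that limit under all 7 alternatives in each kind of cell, but the RefSeq start site removed *Myog* from the female count and added it to the Setdb1 depleted one. Counted within 5 kb of the start site, *Neurod1* gave 1 gene in place of 0 for female H3K9me3, female H3K9me2 and male H3K9me2. The count of 1 gene with a male Setdb1 peak became 0 within 10 kb, at a −log10 p of at least 5, at a q-value under 0.05 and with equal numbers of the strongest peaks, 3 within 50 kb and 4 within 100 kb.

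Mean locus coverage by H3K27me3 (68.2%, 64.1% and 60.4% in female, Setdb1 depleted and male cells) fell with flanks of 100 kb to 36.9%, 29.8% and 31.2%. Mean H3K9me3 coverage (6.72%, 0% and 2.95%) became 1.63%, 0.825% and 0.816% with those flanks, and H3K9me2 coverage (4.21% in female and 3.77% in male cells) 1.09% and 2.46%. Over the gene body alone both H3K9 marks were at 0% in female and male cells. The rise from 0% in the Setdb1 depleted list comes from the domain at 48.8 kb from *Atoh1*. The mark libraries have no depth or score in the lists, so how far depth limits these calls is unknown.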

Other observations

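Genes acting downstream of the 2 lineages were described in the same way, and no difference between the lists was tested. Of 19 muscle genes, such as myosins, troponins and acetylcholine receptor subunits, the start sites of 7 lay in a domain in the female list, 4 in the Setdb1 depleted list and 5 in the male list (36.8%, 21.1% and 26.3%, beside 20.4%, 18.1% and 18.4% of all genes), with a median locus coverage of 0% in each list, as for all genes. *Des* and *Myh3* were in domains in all 3. *Mymk*, which encodes the myoblast fusion factor myomaker, was covered over 100%, 46.2% and 100% of its locus in female, Setdb1 depleted and male cells. *Chrnd* and *Chrng*, subunits of the muscle acetylcholine receptor, were covered over 79.6%, 8.9% and 69.5%, and over 63.2%, 0% and 52.8%. *Ckm*, the muscle creatine kinase, was covered over 51.7%, 51.7% and 0%, and *Cdh15*, the cadherin of muscle precursors, over 25.2%, 16.8% and 0%.

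Of 18 neural and endocrine genes 15, 13 and 15 were in domains (83.3%, 72.2% and 83.3%, beside the same shares of all genes), with median coverage of 71.8%, 69.9% and 74.7%. The list mixes further transcription factors such as *Isl1*, *Nkx2-2*, *Pou4f3* and *Gfi1*, Notch ligands (*Dll1*, *Dll3*) and genes of the neuronal cytoskeleton (*Nefl*, *Nefm*), all in domains in the 3 lists. *Tubb3* and *Map2*, which encode cytoskeletal proteins of neurons, were outside in each. *Stmn2* was covered over 50.5%, 1.7% and 1.7%, *Snap25* over 0%, 0% and 28.9%, and *Elavl4* over 8.0%, 0% and 10.6%.

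Other lists gave a frame for these shares. Of 12 genes active in all cells, such as *Actb* and *Gapdh*, 0 were in an H3K27me3 domain in any list. Of 6 epithelial genes 3, 3 and 2 were, *Epcam* and *Esrp1* in all 3 lists and *Cdh1* in female and Setdb1 depleted cells, while the start sites of *Krt5*, *Krt8* and *Krt18* were outside in each. *Krt8* and *Krt18* were at 0% of the locus in every list, and *Krt5* at 0%, 0% and 50% in female, Setdb1 depleted and male cells. All of these counts stand beside 20.4%, 18.1% and 18.4% of all genes. Of 5 endothelial and blood genes 1 was in each list, the endothelial receptor gene *Kdr*. Male Setdb1 peaks lay within 20 kb of 2 of 3 E proteins, 2 of 4 *Mef2* genes and 2 of 11 upstream muscle regulators. They lay near 3 of 19 muscle, 3 of 18 neural and endocrine, 4 of 14 fibroblast and 2 of 5 endothelial and blood genes. The share of all genes was 9.74%. For the remaining lists beside the 9 genes, the male count was 0.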
